A study of Arabidopsis thaliana with 24 samples.

Results

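The response of roots to 10 days of titanium (Ti) was read from the fitted expression levels of the 2 root groups of that age, Ti-R-10D and Ctrl-R-10D. For each gene the log2 value of the control group, in counts scaled to library size (CPM), was subtracted from that of the Ti group, so a positive difference means a higher level with Ti and 1 unit is a doubling. Genes were ranked by this difference if the mean of both groups reached 5 CPM and if they are nuclear. A gene below 5 CPM in 1 group could thus meet the filter through the other. This left 15763 genes of the 20336 in the root table and of the 21245 found in roots or shoots. At the edge of the filter, AT1G75060 entered with a mean of 5.001 CPM (difference -0.28) and AT2G46250 was left out with 4.997 CPM (0.35).

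All plants were Arabidopsis thaliana of the Col-0 accession, germinated on agar with 0.1X MS salts. Seedlings 5 days old were moved to the same medium without addition (Ctrl) or with 2 mM Ti supplied as titanium dioxide nanopowder, and roots and shoots were harvested separately 3 and 10 days later. Each of the 8 groups had 3 libraries, 24 in all, and each library pooled 160 seedlings. The study asked which genes answer to a Ti dose chosen for its effect on shoot growth and nutrient content. A whole root system holds all root cell types, and in such bulk material fewer cells of a type and less RNA per cell cannot be told apart.

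The deposited table repeats a single fitted value in the 3 columns of a group, with 0 genes in which the columns differ. Hence no spread between libraries, no standard error and no test could be derived for any difference given here, and the depth of the libraries is unknown from the table. The terms higher and lower beyond 0.5 describe size only. The fitted CPM values of the control roots sum to 1009097 and those of the Ti roots to 1016986. Libraries of 3 days old treatments and of shoots are separate plants or organs, and their values are given only to place those of 10-day roots.

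The cell wall is the part of a root cell that faces the medium. Extensins are hydroxyproline-rich glycoproteins that are cross-linked into the wall, and xyloglucan endotransglucosylases and expansins cut, rejoin or loosen its polysaccharides. Flavonols are phenolic compounds that roots make from phenylalanine through chalcone synthase, and glucosinolates are the sulfur-rich defence compounds of this plant family. Ribosome production in the nucleolus follows the demand for growth, and cytokinin, ethylene and brassinosteroids tune it and the wall.

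In 10-day roots, 498 ranked genes (3.16%) were higher with Ti beyond 0.5 and 581 (3.69%) were lower beyond -0.5. All counts of lists and families below are to be read beside these shares. Past 1 on the log2 scale stood 54 genes (0.343%) in the upward and 60 (0.381%) in the downward direction. With the limit of 0.2 that the study used together with its own test, the counts were 3190 (20.2%) and 3169 (20.1%). The median difference was 0.01, with a robust SD over genes of 0.23. In 3-day roots the robust SD was 0.090, and 43 genes (0.272%) were higher and 20 (0.126%) lower beyond 0.5. In shoots at 10 days, 497 of 14000 genes (3.55%) were higher and 428 (3.06%) lower. The robust SD was 0.28 in the quintile of genes with the lowest means, 5.001 to 11.95 CPM, 0.21 in the third and the fourth quintile and 0.25 in the highest. The lowest quintile held 146 of the higher and 183 of the lower genes, and the fourth 81 and 83.

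**Figure D1:**
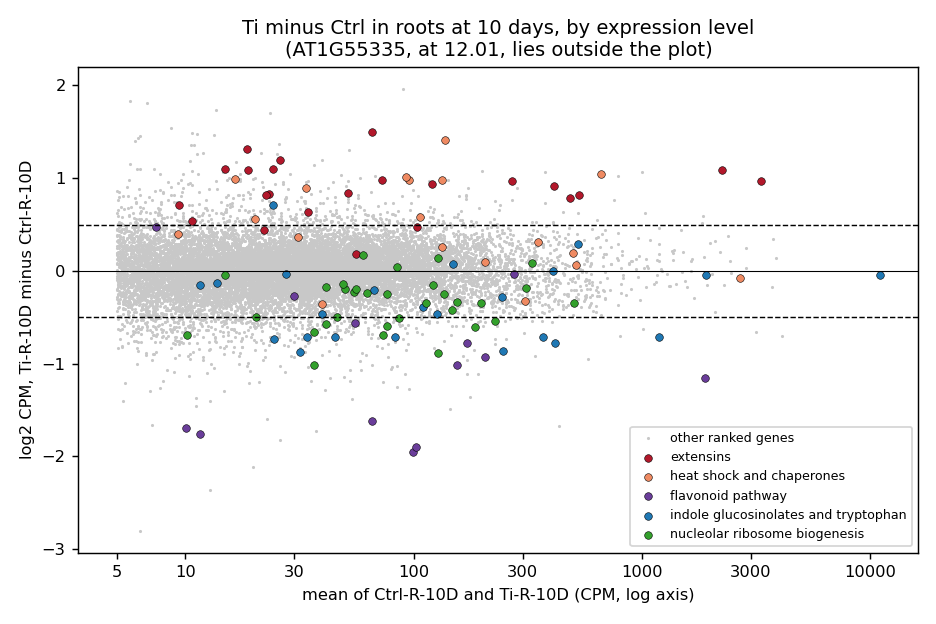
Each point is a ranked gene, with the mean fitted level of both 10-day root groups on a log axis in CPM and the log2 difference Ti minus Ctrl on the vertical axis. Dashed lines mark 0.5 and -0.5. Extensins of the list lie above 0 at all levels, flavonoid pathway genes lie mostly below -0.5, and nucleolar and indole glucosinolate genes lie mostly below 0.

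The largest positive difference among genes without a doubtful partner belonged to XTH24, a xyloglucan endotransglucosylase of the wall. It stood at 36.6 CPM without and 143 CPM with Ti, a difference of 1.97. At 3 days the same gene differed by 0.32 and in 10-day shoots by 0.14. XTR6, of the same enzyme family, followed with 12.5 and 30.3 CPM in control and Ti roots (1.28). Wall proteins were well represented at the top of the ranking: LRX10, a leucine-rich repeat extensin, had 34.4 and 96.9 CPM (1.495), EXT6 10.7 and 26.6 CPM (1.31) and EXT10 15.8 and 36.2 CPM (1.197). GASA14, a small secreted protein of the gibberellin-regulated GASA family, had 14.4 and 37.1 CPM (1.37).

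The 25 largest positive differences also held receptor, lectin and transcription factor genes. A legume lectin gene, AT3G16530, had 3.01 and 10.6 CPM (1.81). The TIR-type NLR receptor genes AT5G41750 and AT5G41740, neighbours on chromosome 5, had 4.42 and 12.9 CPM (1.54) and 3.40 and 9.29 CPM (1.45), and a further TIR-type gene, AT4G14370, had 3.57 and 7.90 CPM (1.15). AT4G33720, a member of the family that includes PR1, had 5.62 and 15.74 CPM (1.485). These genes were weakly expressed in control roots, below 6 CPM in every case, and those below 5 CPM there met the filter through the Ti group. ERF2, an ethylene response factor, had 6.65 and 15.9 CPM (1.26) and DREB26, of the same transcription factor superfamily, 7.02 and 17.0 CPM (1.28).

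Transport and stress proteins complete the upper end. PUP7 and its neighbour AT4G18205, purine permease genes or their relatives, had 6.27 and 20.9 CPM (1.74) and 6.11 and 15.6 CPM (1.36). SWEET12, a sucrose exporter of phloem parenchyma, had 22.8 and 50.5 CPM (1.15). HSP90.1, the heat-inducible cytosolic HSP90, had 74.8 and 199 CPM (1.41) and the small HSP20-like chaperone AT5G51440 24.2 and 55.4 CPM (1.196). BCB, a blue copper-binding protein whose transcript is known to answer to aluminium, had 7.13 and 19.6 CPM (1.46). The tandem cytochrome P450 genes CYP706A1 and CYP706A2 had 30.1 and 74.1 CPM (1.299) and 14.9 and 35.6 CPM (1.26). Their sequences are nearly identical, and their summed level gave a difference of 1.29. The other genes among the 25 largest were AT4G37220, of the WCOR413 cold acclimation family (1.83), the ankyrin gene AT3G13950 (1.44), the methyltransferase gene AT3G54150 (1.40) and AT1G09750, an aspartyl protease (1.18). The last gene inside this set, SWEET12 at 1.15, was followed by AT2G07641 at 1.101.

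The lower end of the ranking began with AT2G22590, a UDP-glycosyltransferase, at 11.0 CPM without and 1.58 CPM with Ti, a difference of -2.80. It differed by 0.38 at 3 days. NRT2.1, the main high-affinity nitrate transporter of roots, followed with 21.5 and 4.16 CPM (-2.37), and ATC, a relative of the flowering regulator TFL1, with 32.2 and 7.41 CPM (-2.12). Flavonol synthesis supplied 5 of the 25 genes: CHI, FLS1, UGT78D1, 4CL3 and CHIL, which are described with their pathway below. AT5G17040, a further UDP-glycosyltransferase, had 10.9 and 3.44 CPM (-1.66). AT2G22590, NRT2.1, 4CL3 and AT5G17040 were below 5 CPM with Ti and met the filter through the control group. ERD9, a glutathione transferase, had 57.4 and 17.4 CPM (-1.72) and, summed with an overlapping gene, -1.43.

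Other leading genes on this side act in sugar, lipid, wall and water relations. SIP2, an alpha-galactosidase that cleaves raffinose, had 657 and 205 CPM in control and Ti roots (-1.68). EXPA15, an alpha-expansin, had 212 and 75.7 CPM (-1.49) and GH9B8, an endoglucanase, 58.01 and 23.8 CPM (-1.29). KAT5, a peroxisomal thiolase of fatty acid oxidation, had 77.4 and 29.6 CPM (-1.38), and PIP2;5, an aquaporin of the plasma membrane, 16.1 and 6.24 CPM (-1.37). APK2, a kinase that makes the active sulfate donor PAPS, had 135 and 55.9 CPM (-1.27). AT5G47980, an acyltransferase gene of the thalianol cluster, had 20.9 and 8.51 CPM (-1.30) and CYP705A20 18.7 and 7.04 CPM (-1.41). OCT1, an organic cation and carnitine transporter, had 9.94 and 4.05 CPM (-1.30). AT5G22020, a strictosidine synthase-like gene, stood at 253 and 98.9 CPM (-1.36). The remainder were AT5G62210, an embryo-specific protein 3 gene (-1.59), AT4G02850 (-1.46), AT5G01740 (-1.40), AT5G22930 (-1.26) and AT2G07706 (-1.82), an uncharacterized gene that lies among nuclear copies of mitochondrial DNA. AT5G22930 closed the set, and AT2G26690 at -1.25 was the next gene. OCT1 and AT5G22930 were below 5 CPM with Ti and met the filter through the control group.

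**Figure D2:**
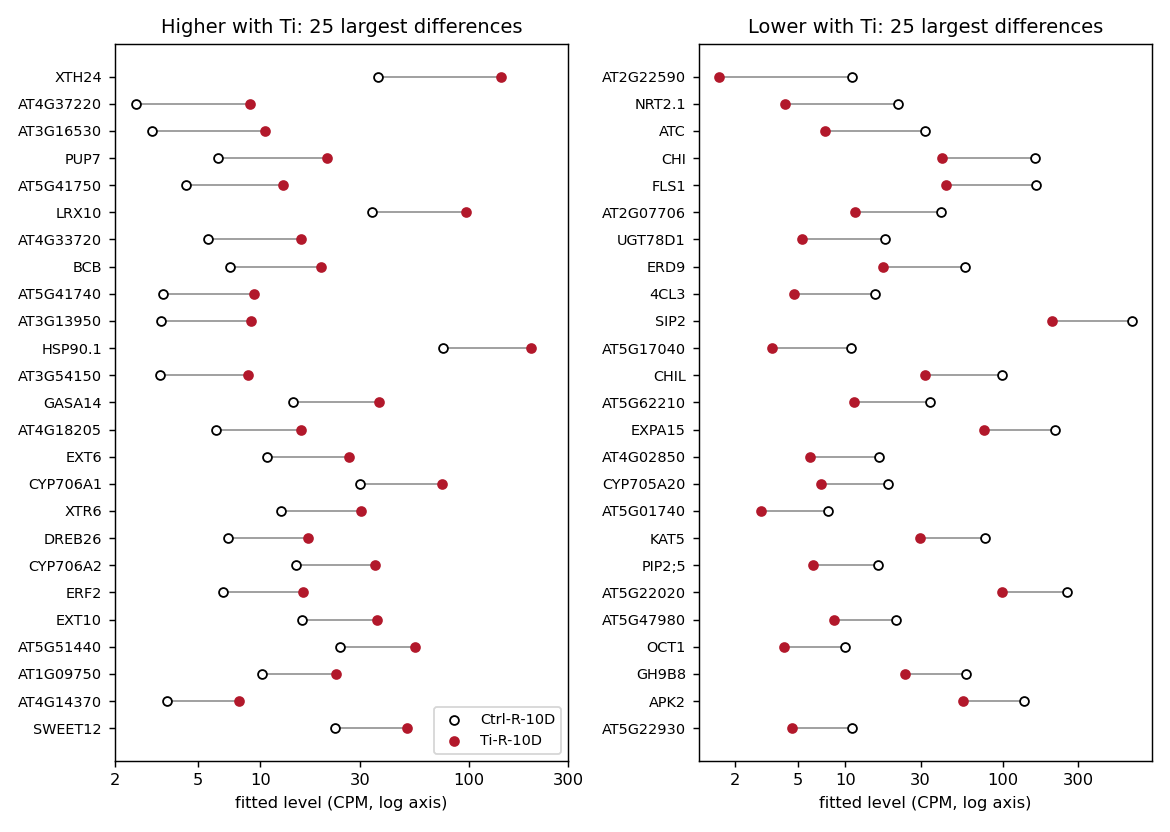
Fitted levels in CPM on a log axis for the 25 genes with the largest positive and the 25 with the largest negative difference, open circles for Ctrl-R-10D and filled circles for Ti-R-10D. Each symbol is a fitted group value without error bars. XTH24, at 36.6 and 143 CPM, heads the first panel and AT2G22590, at 11.0 and 1.58 CPM, the second.

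Of the genes past the limit, 67 of the 498 higher and 68 of the 581 lower had a near-identical copy or an overlapping gene, and 48 in each direction no longer passed 0.5 once the levels were summed, or copied an organelle gene. The largest was AT1G55335, at 0.0058 and 24.03 CPM (12.01), which with its partner AT1G55330 gave 0.24. AT2G07727, AT2G07725 and AT2G07698, nuclear copies of mitochondrial genes, differed by 1.71, 1.481 and 1.18. MORF4 differed by -1.205 alone and by -0.39 with its overlapping neighbour. None of these genes is counted among the leading genes above. LCR11, which the study itself names, was left out of that set too.

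Extensins were higher as a group. Of 27 listed extensins, proline-rich proteins and leucine-rich repeat extensins, 23 were ranked and 4 were not in the root table. 20 of the 23 were higher beyond 0.5 with Ti, against 3.16% of all ranked genes, and none was lower. All 23 differences of the list were above 0, from 0.18 for LRX5 to 1.495 for LRX10, with a median of 0.92 where all genes had 0.01. An extensin family found by product name, which shares many members with the list, was less uniform. Of its 22 ranked genes 16 were higher and none lower beyond the limit, 2 were below 0, the lowest at -0.23, and the median was 0.82. EXT21 stood at 2244 and 4410.0 CPM (0.97) and EXT3, whose product is needed for cell plate and wall assembly in the embryo, at 1430.3 and 3030.2 CPM (1.08). EXT8 had 15.4 and 32.9 CPM (1.096) and EXT17 183 and 358 CPM (0.97). The 3 members under the limit were the leucine-rich repeat extensins LRX4 (0.47), LRX1 (0.44) and LRX5. Extensin coding sequences are repetitive, so reads can be shared among them. Summed over the ranked members, the level was 5378 CPM without and 10513 CPM with Ti. At 3 days the median of the same genes was -0.18 and in shoots -0.01, over the 12 members found in shoots.

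Enzymes of wall polysaccharides and of their sugars divided by family. Among 14 ranked enzymes of wall and vacuolar sugars, 6 were higher beyond 0.5, against 3.16% of all ranked genes, and none lower, with a median of 0.38. XTH24, one of the 6, is also counted with the xyloglucan endotransglucosylases. BGAL1, a beta-galactosidase, had 516 and 1053 CPM (1.03). The beta-xylosidases BXL1 and BXL2 had 122 and 225 CPM (0.89) and 200.2 and 340.5 CPM (0.77). UGE1 and UGE2, which interconvert UDP-glucose and UDP-galactose and do not act on the polysaccharides themselves, had 169 and 285 CPM (0.76) and 6.90 and 11.5 CPM (0.74). In the xyloglucan endotransglucosylase family, 4 of 20 were higher, among them TCH4 (0.80) and XTH9 (0.79), and 2 were lower, XTH20 (-0.87) and XTH32 (-1.005). XTH32, at 4.08 CPM with Ti, met the filter through the control group. Expansins had 6 lower and 3 higher of 19. The lower ones were alpha- and beta-expansins, such as EXPA4 at 434 and 298 CPM (-0.54) and EXPB3 at 284 and 170.1 CPM (-0.74), and the higher ones were the expansin-like genes EXLA1 (0.96), EXLA3 (0.67) and EXLB1 (0.66). The pectin lyase and methylesterase family, found by product name, showed no such shift, with 5 higher and 7 lower of 79 and a median of 0.02. PGIP1 (0.58), one of the 5, is an inhibitor of pectin-degrading enzymes. The class III peroxidase family, found by product name, had 3 higher and 2 lower of 48. DOX1 (0.63), one of the 3, is an alpha-dioxygenase and not a class III peroxidase.

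Of the lists and families described, the flavonoid pathway had the lowest median. Of 25 listed genes, 13 were ranked, 5 were below the filter and 7, including DFR and LDOX of the anthocyanin branch, were not in the root table. 10 of the 13 were lower beyond -0.5, against 3.69% of all ranked genes, and none was higher; the median was -1.02. CHS, chalcone synthase, the first committed enzyme, stood at 2614 CPM without and 1169 CPM with Ti, a difference of -1.16. CHI, chalcone isomerase, had 159 and 40.8 CPM (-1.96), its non-catalytic helper CHIL 98.7 and 32.2 CPM (-1.62), and F3H, flavanone 3-hydroxylase, 206 and 102 CPM (-1.02). FLS1, which makes flavonols, had 162 and 43.3 CPM (-1.90).

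Genes before and after these steps were lower as well. 4CL3, the ligase that feeds coumaroyl-CoA into flavonoids, had 15.3 and 4.73 CPM (-1.70). UGT78D1, which attaches rhamnose to flavonols, had 17.8 and 5.27 CPM (-1.76), RHM1, which makes UDP-rhamnose, 269 and 141 CPM (-0.93), and the flavonoid transporter DTX35 215 and 126 CPM (-0.77). Not past the limit were UGT78D2 (-0.27), OMT1 (-0.03) and MYB12, the flavonol regulator, at 6.21 and 8.65 CPM (0.48). Of the general phenylpropanoid and lignin genes, 1 of 18 was lower beyond -0.5, CAD9 at 7.80 and 4.58 CPM (-0.77), and the median was -0.08. CAD9 met the filter through the control group. PAL1 had 357 and 305 CPM (-0.23) and C4H 521 and 452 CPM (-0.20). The flavonoid median was 0.05 in 3-day roots and -0.63 in 10-day shoots.

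The promoter of CHIL is shown because it holds a G box (CACGTG, in capitals), one of the elements searched. The 250 bases before the RefSeq gene start at chr5:1563036-1563285 (TAIR10.1, + strand) read 5′ to 3′:

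CHIL: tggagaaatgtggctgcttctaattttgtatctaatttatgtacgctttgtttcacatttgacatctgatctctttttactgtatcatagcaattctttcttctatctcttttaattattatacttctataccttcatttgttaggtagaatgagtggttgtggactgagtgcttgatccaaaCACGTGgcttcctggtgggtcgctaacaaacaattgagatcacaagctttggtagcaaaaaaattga

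A G box was present in 30.8% of the 13 flavonoid promoters and in 7.4% of all ranked promoters. An AC element (ACCTACC or ACCAACC) was present in 15.4% against 3.98%. In such short windows a match is a description of letters only.

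Genes for making ribosomes differed by small amounts, mostly downward. Of 32 nucleolar genes, all ranked, 10 were lower beyond -0.5, against 3.69% of all ranked genes, and none was higher. In all, 28 differences lay below 0, with a median of -0.34. NSN1, one of the 10, was at -0.47 when summed with its partner gene. HDT4, a nucleolar histone deacetylase of the HD2 type, had 48.9 and 24.3 CPM (-1.01). The related HDT1 had 91.8 and 60.6 CPM (-0.60) and HDT2 270.0 and 186 CPM (-0.54). FIB2, fibrillarin, which methylates ribosomal RNA, had 166 and 90.08 CPM (-0.88) while its paralogue FIB1 had 331 and 291 CPM (-0.19). NOP56 and NHP2, proteins of the small nucleolar particles, had 223 and 147 CPM (-0.61) and 91.0 and 56.5 CPM (-0.69). DOMINO1, required for ribosome production in embryos, had 44.7 and 28.2 CPM (-0.66), and NUC1, nucleolin, 564 and 444 CPM (-0.35). MTR4, a helicase of RNA decay, was among the 4 above 0 (0.17).

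The ribosomal protein family, defined by product names that mention no organelle, held 322 ranked genes. 32 were lower beyond -0.5, against 3.69% of all ranked genes, and 1 was higher. The higher gene, AT2G07725, is one of the nuclear copies of mitochondrial genes named above. When summed with a partner gene, 5 of the lower genes no longer passed the limit. In all, 295 of the 322 differences were below 0, and the median was -0.31 where all genes had 0.01. Examples are AT3G06680, a ribosomal L29e family gene, at 39.3 and 20.7 CPM (-0.93), RPL24A at 168 and 115 CPM (-0.54) and RPS6, encoding the subunit phosphorylated on growth signals, at 333 and 235 CPM (-0.51). Summed over the family, the level was 54667 CPM without and 44529 CPM with Ti. The family median was -0.06 at 3 days and -0.09 in shoots, whereas the nucleolar list had -0.02 and -0.38.

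Promoters of a ribosomal protein gene and of a nucleolar gene are shown because both hold the elements known from genes of the translation machinery. Capitals mark the telo box (AAACCCTA) and site II elements (TGGGCC or TGGGCT) on either strand. AT3G11120, at 37.2 and 23.05 CPM (-0.69), has the 250 bases at chr3:3480770-3481019 (+ strand), and NOP56 those at chr1:20986953-20987202 (- strand), both in TAIR10.1.

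AT3G11120: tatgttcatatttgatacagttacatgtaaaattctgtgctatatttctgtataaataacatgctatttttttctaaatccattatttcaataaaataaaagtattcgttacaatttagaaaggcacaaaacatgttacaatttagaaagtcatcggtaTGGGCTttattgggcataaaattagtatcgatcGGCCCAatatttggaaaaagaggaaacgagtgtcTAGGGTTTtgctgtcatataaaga

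NOP56: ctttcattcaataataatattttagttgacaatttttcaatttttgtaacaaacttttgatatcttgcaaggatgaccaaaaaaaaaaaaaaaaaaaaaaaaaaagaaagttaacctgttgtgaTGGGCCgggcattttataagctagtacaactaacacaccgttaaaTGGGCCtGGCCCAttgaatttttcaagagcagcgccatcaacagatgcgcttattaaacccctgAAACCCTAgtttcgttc

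Site II elements occurred in 58.1% of the ribosomal protein promoters and 56.2% of the nucleolar ones, against 23.4% of all ranked promoters, and the telo box in 14.9% and 15.6% against 3.44%. The 223 ranked genes with both elements had a median difference of -0.12, or -0.076 over the 189 that are not ribosomal protein genes, and the 11751 genes with neither had 0.03. Among the 200 genes with the largest negative differences, a telo box was found in 2.5% and site II in 14.5%, below the shares of all genes. Genes with these elements were thus shifted by small amounts and were not over-represented at the lower end of the ranking.

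Transcript length moved with the same differences. The quintile of ranked genes with the shortest longest-transcript, 102 to 1210 bases, had a median of -0.11, and the quintile with the longest, 2602 to 16593 bases, had 0.11. Without ribosomal protein genes the shortest quintile had -0.089. Within that quintile, the 241 ribosomal protein genes had a median of -0.32. In 3-day roots the 2 ends were at -0.035 and 0.015. Organelle genes, kept out of the ranking, also differed: 47 of 52 plastid genes and 21 of 23 mitochondrial genes were higher beyond 0.5, with medians of 1.51 and 1.22. Their summed levels were low, 54.1 and 145 CPM for plastid genes and 54.0 and 129 CPM for mitochondrial genes in control and Ti roots. The part of transcript length and of organelle RNA in the results on short transcripts was not tested.

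**Figure D3:**
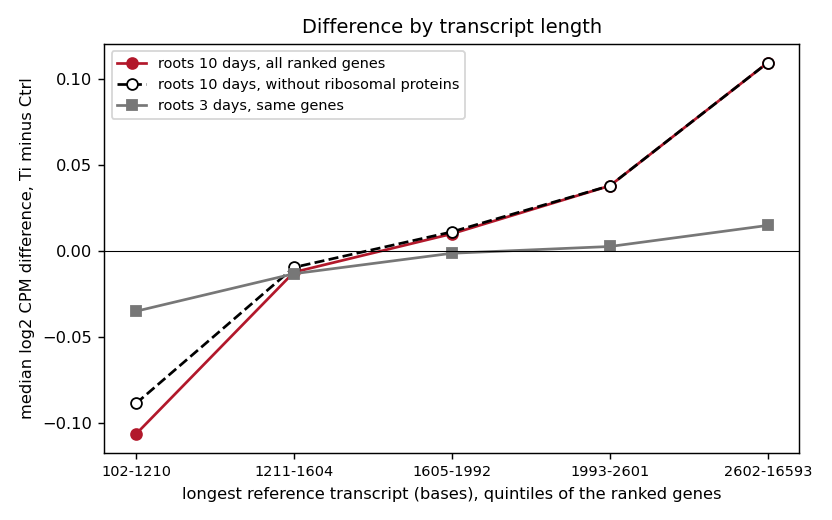
Median log2 difference Ti minus Ctrl in quintiles of the ranked genes by the length of the longest reference transcript in bases, for 10-day roots with and without ribosomal protein genes and for 3-day roots. The 10-day medians climb from -0.11 in the shortest to 0.11 in the longest quintile.

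Nuclear genes for mitochondrial biogenesis shared the direction of the ribosomal genes. All 18 ranked import and prohibitin genes were below 0, 3 of them beyond -0.5, with a median of -0.35. TIM13, a chaperone of the intermembrane space, had 44.0 and 26.9 CPM (-0.71), TIM50, a receptor of the inner membrane translocase, 31.0 and 19.5 CPM (-0.67), and TOM5 47.0 and 32.4 CPM (-0.54). Of 8 mitochondrial glycoprotein family genes, 5 were lower beyond -0.5, including AT5G02050 at 66.6 and 42.2 CPM (-0.66). Another of them, AT2G39795 (-0.66), was at -0.04 when summed with its partner gene. Mitochondrial stress markers did not pass the limit in either direction (6 ranked, median 0.16).

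In the indole glucosinolate branch with tryptophan synthesis, 9 of 23 ranked genes were lower beyond -0.5, against 3.69% of all ranked genes. Of the others 1 was higher beyond 0.5, and the median was -0.39. ASB1, a tryptophan gene among the 9, was at -0.44 when summed with its partner gene. CYP79B2 and CYP79B3, which convert tryptophan to its oxime, had 318 and 175 CPM (-0.86) and 526 and 308 CPM (-0.78), and the next enzyme CYP83B1 had 458 and 278 CPM (-0.72). The tryptophan enzymes PAT1, IGPS and TSA1 had 41.2 and 22.4 CPM (-0.88), 56.2 and 34.4 CPM (-0.71) and 103 and 62.4 CPM (-0.72). GSTF9, a glutathione transferase of the core pathway, had 1473 and 898 CPM (-0.71). Genes that decorate or break down indole glucosinolates were close to 0, such as CYP81F4 (-0.04) and the myrosinase PYK10, listed as BGLU23 (-0.05). The higher gene was the regulator MYB51, at 18.4 and 30.1 CPM (0.71).

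In the aliphatic glucosinolate branch 5 of 19 ranked genes were higher beyond 0.5, against 3.16% of all ranked genes, and none lower, with a median of 0.21. BCAT4 and MAM1, which start the elongation of methionine, had 18.4 and 35.3 CPM (0.94) and 24.1 and 44.7 CPM (0.89). IPMI1, of the same cycle, had 17.5 and 27.4 CPM (0.64), and CYP79F2 and CYP83A1, the counterparts of the indole P450 enzymes, 16.1 and 27.3 CPM (0.77) and 23.5 and 40.8 CPM (0.80). In shoots the aliphatic median was -0.44 and the indole median -0.08. Of the 13 genes that make, recycle or reduce activated sulfate, 4 were lower: APK2, APK1 at 97.8 and 56.6 CPM (-0.79), the phosphatase SAL1 at 50.7 and 31.0 CPM (-0.71) and the ATP sulfurylase ATPS1 at 391 and 268 CPM (-0.55). None was higher beyond 0.5. The reductase genes APR1, APR2 and APR3 differed by 0.25, 0.25 and 0.26. Over the list 5 differences were above 0 and 8 below.

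Among the heat shock genes and chaperones, 9 of 19 ranked members passed 0.5, against 3.16% of all ranked genes, 10 stood between the limits and none passed -0.5, with a median of 0.40. A further 4 small heat shock and related genes were under the filter and 5 were not in the table. HSP70 had 433 and 893 CPM (1.04), and HSP101, the disaggregase, 64.4 and 127 CPM (0.98). HSFA2, a heat shock factor that is itself heat-induced, had 11.1 and 22.1 CPM (0.99) and the peptidyl-prolyl isomerase ROF2 23.5 and 43.7 CPM (0.89). The calls of HOP3 (1.01) and MBF1C (0.58) did not hold once summed with an overlapping gene, at 0.39 and 0.34. The constitutive HSC70-1 had 2754 and 2609.9 CPM (-0.08), and the endoplasmic reticulum chaperones BIP2 and P58IPK had -0.33 and -0.36. The median was -0.13 in 3-day roots and -0.39 in 10-day shoots, where HSP101 differed by -1.53 and HSFA2 by -1.51. The same list thus stood on opposite sides of 0 in roots and shoots of one age; the difference between organs was not tested.

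The promoter of HSFA2 is shown because it holds 2 heat shock elements (GAANNTTC, capitals) at 88 and 33 bases before the gene start. It covers chr2:11135374-11135623 (TAIR10.1, + strand).

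HSFA2: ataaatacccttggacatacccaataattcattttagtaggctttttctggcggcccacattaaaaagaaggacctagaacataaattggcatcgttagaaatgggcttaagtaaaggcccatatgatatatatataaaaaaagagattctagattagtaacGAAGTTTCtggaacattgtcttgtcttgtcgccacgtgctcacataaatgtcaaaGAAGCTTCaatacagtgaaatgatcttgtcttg

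A heat shock element was found in 15.8% of the chaperone promoters, in 14% of those of the 200 genes with the largest positive differences, and in 9.04% of all ranked promoters. The CGCG box (ACGCGT or CCGCGT), the binding sequence of the calmodulin-binding CAMTA factors, was found in 7% of these 200 and 3.66% of all, and in 21.1% of the touch and calcium responsive genes. For the W box (TTGACC or TTGACT) the shares were 25.5% and 28.5%, and for the GCC box (GCCGCC) 3% and 1.95%. The dehydration element (GCCGAC or ACCGAC) was in 6% against 8.16%.

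Of 20 clock genes, 8 were higher beyond 0.5, against 3.16% of all ranked genes, 1 was lower and 11 stood between the limits. The higher genes included PRR5, PRR7 and PRR9, day-phased repressors, at 9.40 and 19.7 CPM (1.07), 149 and 238 CPM (0.68) and 47.2 and 74.4 CPM (0.66), and the evening genes GI, TOC1 and ELF4 at 90.5 and 146 CPM (0.69), 48.6 and 74.4 CPM (0.61) and 7.81 and 11.8 CPM (0.59). The lower gene was LHY, a morning gene, at 22.4 and 11.9 CPM (-0.92), while its partner CCA1 had 32.1 and 28.6 CPM (-0.17). At 3 days LHY differed by -0.40 and CCA1 by -0.46, and in 10-day shoots by -1.02 and -0.49. The hour of harvest of each group is not given in the sources used here, so its part in these values was not tested. The evening element (AAATATCT) occurred in 30% of the clock promoters and 4.94% of all.

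Of 16 ranked cytokinin genes, 5 passed -0.5, against 3.69% of all ranked genes, none passed 0.5 and 11 stood between the limits, with a median of -0.42. ARR7, ARR6 and ARR4, type-A response regulators that cytokinin induces, had 49.3 and 21.6 CPM (-1.19), 76.2 and 49.7 CPM (-0.62) and 297 and 204 CPM (-0.54). ARR6 stood at -0.39 when summed with an overlapping gene. CYP735A2, which makes trans-zeatin in roots, had 46.2 and 22.5 CPM (-1.03), and ASL9, a cytokinin-induced transcription factor gene, 19.3 and 11.4 CPM (-0.76). In 3-day roots the median was 0.11, with CYP735A2 at 0.38 and ARR7 at 0.35. Shoots at 10 days had a median of -0.45.

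In the ethylene list, 5 of 20 genes were higher, where 3.16% of all ranked genes were higher and 3.69% lower. They were ERF2, RAP2.6 (11.6 and 23.1 CPM (0.99)), the receptor ETR2 (20.2 and 34.8 CPM (0.79)), ERF106 (0.73) and ERF6 (0.73). Ethylene biosynthesis genes stayed inside the limit, for instance ACS6 at 0.14 and ACO1 at -0.25. In the brassinosteroid and gibberellin list 5 of 19 were higher, among them EXO (35.2 and 66.4 CPM (0.91)) and EXL2 (284 and 470.3 CPM (0.73)), and BEE2 was lower (-0.66). Biosynthesis genes such as DWF4 (-0.31) and BR6OX2 (-0.06) were not past the limit. Of 22 auxin genes, 2 were lower, the influx carrier LAX3 at 124 and 80.9 CPM (-0.62) and IAA3 at 62.5 and 42.8 CPM (-0.54), and none was higher. IAA3 stood at -0.44 when summed with an overlapping gene. SAUR genes had 5 lower and 1 higher of 13. Jasmonate genes had 2 higher of 14, JAZ6 (0.85) and MYC2 (0.55, or 0.43 with an overlapping gene).

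Genes of touch, calcium and defence were higher in part. Of 19 touch and calcium responsive genes, 8 were higher and 2 lower, against 3.16% and 3.69% of all ranked genes, with a median of 0.43. Among the 8, XTR6 and TCH4 are also counted with the xyloglucan endotransglucosylases, and WRKY33 and WRKY18 with the WRKY family. DREB26 was named with the leading genes. TCH4 had 64.7 and 113 CPM (0.80), TCH3, a calmodulin-like protein, 24.5 and 38.9 CPM (0.66), and CML38 16.6 and 29.7 CPM (0.84). The defence regulators WRKY33 and WRKY18 had 70.2 and 128 CPM (0.87) and 12.4 and 22.0 CPM (0.82), whereas WRKY22 had 25.1 and 12.5 CPM (-0.998). Over the WRKY family, 3 of 40 were higher and 3 lower, with a median of 0.03. Pattern-triggered immunity genes were higher in 6 of 17 cases, among them the kinase MPK3 (94.9 and 151 CPM (0.67)) and the oxidase RBOHD (98.1 and 146 CPM (0.57)). BON1 (0.94) was at 0.41 when summed with a near-identical neighbour.

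In the NLR family of immune receptors, 10 of 92 ranked genes were higher beyond 0.5, against 3.16% of all ranked genes, and none was lower. In all, 83 were above 0, and the median was 0.27. Of the 10, AT4G14370, AT5G41740, AT5G41750, LAZ5 and AT5G48780 were below 5 CPM in control roots and met the filter through the Ti group. The count therefore leans on genes that the filter admitted because they were higher with Ti. RPP13, a receptor for a downy mildew effector, had 8.19 and 14.8 CPM (0.85) and LAZ5 4.56 and 7.65 CPM (0.75). Receptor-like proteins had 5 higher of 22, but RLP42, RLP48 and RLP56 were below 5 CPM in control roots and met the filter through the Ti group, and the family median of 0.19 was 0.03 with a filter of 10 CPM. Chitinases had 1 higher of 15 and a median of -0.20. Of 37 C1 domain proteins, 6 were higher and 1 lower. AT1G53340 and AT5G59930 among the 6 were below 5 CPM in control roots and met the filter through the Ti group. Purine permeases had 3 of 5 higher, including PUP18 at 38.9 and 78.05 CPM (1.01) and PUP14 at 154 and 222 CPM (0.53).

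A list of genes known to answer to aluminium had 5 of 14 members higher, against 3.16% of all ranked genes, and none lower. Apart from BCB they were NADP-ME2, a malic enzyme, at 650.0 and 1358 CPM (1.06), the malate channel gene ALMT1 at 19.8 and 36.7 CPM (0.89), the citrate exporter gene MATE at 5.23 and 9.52 CPM (0.87) and PGIP1, an inhibitor of pectin-degrading enzymes, at 94.3 and 141 CPM (0.58). ALMT1 and MATE are named by the study itself. The factor STOP1, which controls several of them, had 182 and 212 CPM (0.22). The list median was 0.40 in 10-day and 0.00069 in 3-day roots.

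**Figure D4:**
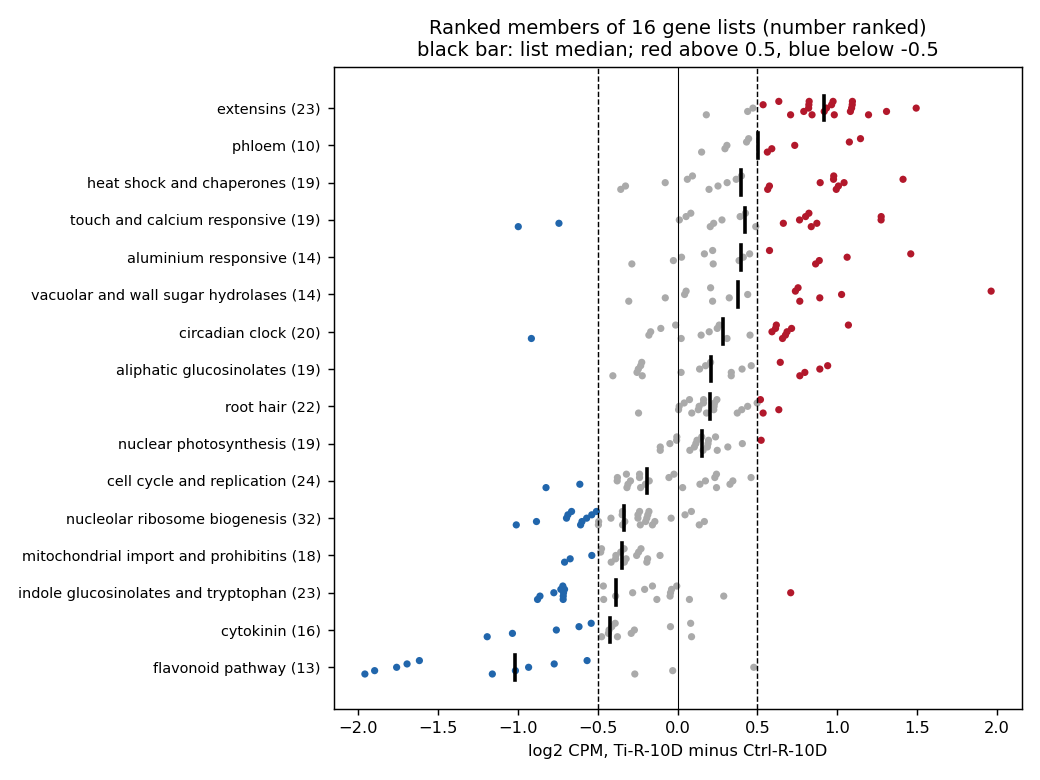
Log2 difference Ti minus Ctrl in 10-day roots for each ranked member of 16 gene lists, with a black bar at the list median, red for members above 0.5, blue for members below -0.5 and dashed lines at these limits. All extensins of the list lie to the right of 0, and 12 of 13 flavonoid genes lie to the left.

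Over the nitrate list, 3 of 24 ranked genes were higher, 4 were lower and 17 stood between the limits, with a median of -0.04. NRT2.1 (-2.37) and NRT3.1, the partner protein it needs, at 107 and 51.7 CPM (-1.05), were lower. NIA1 and NIA2, the nitrate reductases, were higher at 79.2 and 155 CPM (0.97) and 351 and 547 CPM (0.64), as was NRT1.5, the xylem loader also called NPF7.3, at 556 and 946 CPM (0.77). GLN1;2, a glutamine synthetase, had 1223 and 793 CPM (-0.62), and the regulator HRS1 311 and 217 CPM (-0.52). In 10-day shoots NRT2.1 differed by -2.63, and at 3 days in roots by -0.00093.

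Phosphate starvation genes had 3 lower and 1 higher of 15. SPX1, a sensor protein induced by low phosphate, had 14.3 and 6.51 CPM (-1.14), the transporter PHT1;4 87.7 and 43.4 CPM (-1.02) and PHO1;H1 14.0 and 8.98 CPM (-0.64). PHT1;1 had 662 and 506 CPM (-0.39) and the regulator PHR1 0.12. At 3 days SPX1 and PHT1;4 differed by 0.41 and 0.27. Iron deficiency genes had 2 higher and 3 lower of 19. CYP82C4 and S8H, which make catechol coumarins for iron mobilisation, were higher at 34.8 and 68.3 CPM (0.97) and 5.79 and 8.96 CPM (0.63), while OPT3, the phloem iron transporter, was lower at 158 and 88.6 CPM (-0.83), as were the regulators BHLH39 (-0.54) and BHLH38 (-0.66, or 0.03 with its partner gene). FIT, the master regulator of root iron uptake, had 42.9 and 52.6 CPM (0.29).

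Proline and sugar genes showed single members past the limit. PRODH1 and PRODH2, proline dehydrogenases, had 761 and 395 CPM (-0.95) and 16.9 and 10.2 CPM (-0.73). P5CS1, which makes proline, differed by 0.21, or by -0.04 when summed with an overlapping gene. BZIP11, a regulator of the proline dehydrogenases, had 23.5 and 15.9 CPM (-0.56). The sugar starvation list had 2 of 20 higher, BXL1 and BCAT2 (0.63, or 0.31 with an overlapping gene), and DIN10 was at 1037 and 1075 CPM (0.05). Hypoxia genes had 3 higher of 11, including SUS1, a sucrose synthase, at 63.3 and 96.8 CPM (0.61), but ADH1 was at 14.2 and 14.9 CPM (0.06). HRE1, an ethylene response factor of that list, had 25.1 and 41.6 CPM (0.73) and was at -0.32 when summed with an overlapping gene. Cold regulon genes had 2 lower of 10, KIN2 at 125 and 57.7 CPM (-1.11) and UGT79B2 at 26.6 and 11.5 CPM (-1.21).

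Markers of root cell types differed in the following way. Phloem markers were higher in 5 of 10 ranked cases, against 3.16% of all ranked genes, and all 10 were above 0. SUC2, the sucrose loader of companion cells, had 73.0 and 121 CPM (0.73), SWEET11 6.86 and 14.5 CPM (1.08), and the sieve element proteins SEOR1 and SEOR2 37.7 and 56.7 CPM (0.59) and 33.2 and 49.1 CPM (0.56). The companion cell proton pump AHA3 had 59.2 and 65.7 CPM (0.15). The phloem sum was 359 CPM without and 519 CPM with Ti. The listed markers NEN4 (0.02), NAC086 (-0.21) and AKT2 (0.85) were under the filter. SUC2, SWEET11, AHA3 and PP2-A1 were higher in 10-day control shoots than in control roots, and the other ranked phloem markers were lower there. The phloem markers thus did not mark root tissue alone. Cortex markers were higher in 3 of 3 ranked cases, at sums of 25.7 and 50.1 CPM. In 10-day control shoots CO2, AT1G62510 and AT1G09750 were at 20.1, 74.8 and 104 CPM, against 6.17, 9.25 and 10.2 CPM in control roots. These cortex markers likewise did not mark root tissue alone. The remaining cortex marker, AT5G02000, was under the filter at 0.55 and 0.38 CPM.

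Other cell types had fewer ranked members past the limit, where 3.16% of all ranked genes were higher and 3.69% lower. Root hair markers had 3 of 22 higher, PRP3, LRX2 and RSL2 (0.52), of which PRP3 and LRX2 are also in the extensin list, and a median of 0.20. RSL4, a master regulator of hair growth, had 6.91 and 5.84 CPM (-0.24). Casparian strip markers had 1 of 12 higher, ESB1 at 30.8 and 52.9 CPM (0.78), which was 0.27 with an overlapping gene; CASP1 was at 84.4 and 102 CPM (0.27). No ranked suberin, xylem, non-hair or root cap marker was past the limit in either direction, with 15, 13, 4 and 4 ranked. Under the filter, the xylem vessel regulators VND6 and VND7 had 5.90 and 2.08 CPM (-1.50) and 3.68 and 2.28 CPM (-0.69). In the stem cell niche list 1 of 9, ANT, was lower at 25.1 and 12.3 CPM (-1.03); PLT1 had -0.16 and SCR -0.03. Cell cycle genes had 2 lower of 24, PCNA1 at 18.1 and 10.2 CPM (-0.82) and CYCD3;1 at 42.1 and 27.5 CPM (-0.61). All 5 MCM replication helicase genes of the list were below 0, from -0.38 for MCM3 to -0.24 for MCM2, whereas mitotic genes such as CYCB2;3 (0.46) and CDC20.1 (0.35) were above it.

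Green tissue in the root samples was checked with 24 nuclear photosynthesis genes, of which 19 were ranked. Their sum was 2129.5 CPM without and 2375 CPM with Ti, 1 was higher beyond 0.5 (LHCB1.3, 0.52, or 0.40 with its partner genes) and the median was 0.15. At 3 days the median was 0.20. RBCS1A, the small subunit of Rubisco, had 214 and 233 CPM (0.12). The part of green tissue in the root values was not tested.

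**Figure D5:**
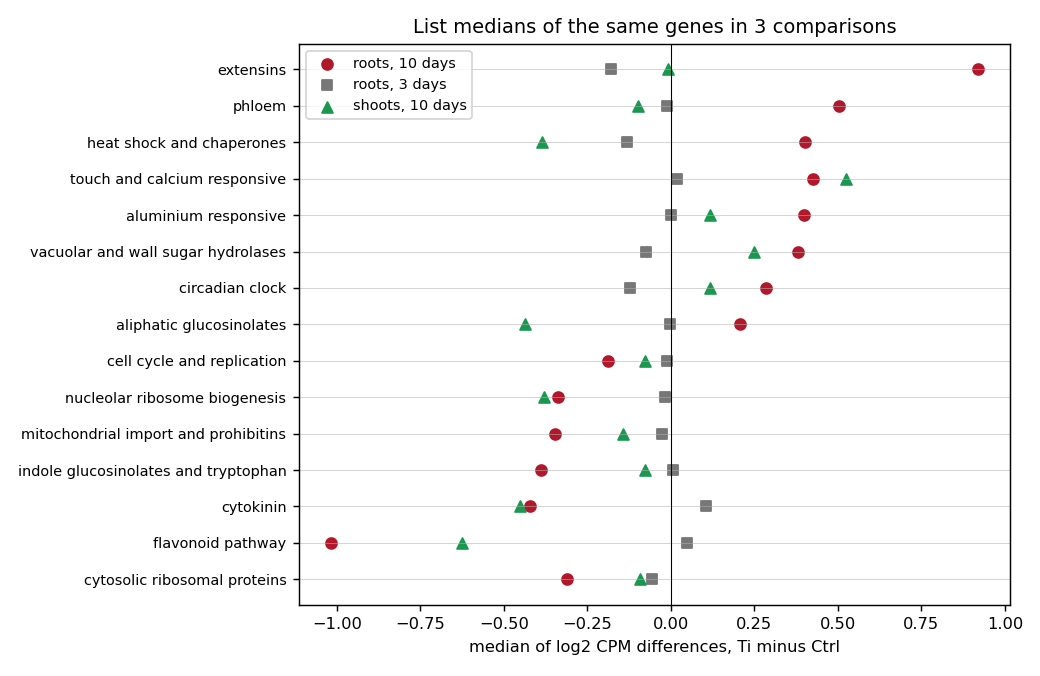
Median log2 difference Ti minus Ctrl over the same genes in 10-day roots, 3-day roots and 10-day shoots, for 14 lists and the ribosomal protein family. Medians of 3-day roots lie between -0.18 and 0.11, and those of 10-day roots between -1.02 and 0.92. The heat shock and aliphatic glucosinolate lists are among those on opposite sides of 0 in 10-day roots and shoots.

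Set beside the other libraries, the medians of some lists lay on opposite sides of 0 in 10-day and 3-day roots. Extensins had 0.92 at 10 days and -0.18 at 3 days, flavonoid genes -1.02 and 0.05, and cytokinin genes -0.42 and 0.11. Among the leading genes both cases occurred. AT3G16530 (1.81 and 0.65) and PUP7 (1.74 and 0.49) had the same sign at both ages, and LRX10 (1.495 and -0.28) had opposite signs. Agreement between the ages over all ranked genes was not tested. Shoots of the same age stood near roots in the touch list (0.52 and 0.43), the cytokinin list and the nucleolar list, and apart from them in the extensin and phloem lists (-0.10 in shoots). With 1 fitted value per group and gene, no test of these differences between ages or organs was possible.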

How the data were processed

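Roots and shoots of Arabidopsis were profiled by poly(A)-selected paired-end RNA-seq. Per the study's methods and the labels, the authors checked reads with FastQC 0.11.9, trimmed them with Trim Galore 0.6.6, quantified them with kallisto 0.44.0 on Araport11 transcripts and modelled gene counts in edgeR, each organ separately. The deposited values are log2 CPM fitted by the authors, 1 per group, repeated in its 3 columns, so the groups stayed without spread and the table does not give the depth of each library. The shrinkage of the fit and the assignment of shared reads by kallisto can move low values and near-identical genes.

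Here log2 values were subtracted (Ti minus Ctrl), and CPM obtained as powers of 2. Genes with plastid or mitochondrial identifiers and genes with a mean under 5 CPM were left out. The limit of 0.5 corresponds to 1.41-fold. No test was run, since a group holds no replicate values. The named genes are the 25 largest differences in each direction among genes that have no near-identical copy (95% identity over 80% of the transcript, BLAST+ 2.17.0; for organelle copies, of the organelle transcript, a measure added after the values were seen) and no overlapping gene (50 bases of exon, bedtools 2.31.1) whose summed level brings the difference under 0.5, and up to 6 members of each list; a few further list members with a stated role were added after their values were seen. Genes named in the study's results were left to the lists. Copies and overlaps were searched in the RefSeq annotation of TAIR10.1, in which all 15763 ranked genes were found. The files hold no coordinates, and those printed are from TAIR10.1. Promoters are 250 bases before the RefSeq gene start, available for 15763 genes, and 10 motifs were searched on both strands. The members of the 40 lists and 35 families (by product name) were chosen with earlier results of these data known, so their medians and counts are descriptions. Some genes stand in more than 1 list or family, with 760 distinct loci among 772 list entries, so the counts are not independent. The family patterns for ERF and LEA were restricted to whole capital words, and 1 symbol in the cell cycle list was corrected to CDC45, after the values were seen. Scripts were tested on simulated data and run in Python 3.11.15 with pandas 2.3.3. Extensin repeats in protein sequences were not analysed here.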

Additional observations from a re-analysis of the deposited data

How the results depend on the processing

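No paired analysis was possible because a group has 1 fitted value, written 3 times, and for the same reason leaving out replicates could not be run. The counts of genes higher and lower with Ti were 854 and 877 with a mean of at least 1 CPM, 1202 and 1158 with no filter on low values, 3190 and 3169 at the study's limit of 0.2, and 54 and 60 at a limit of 1; they stayed within 1.5 times of 498 and 581 with the 10 CPM filter, the filter on mean log2 values, pseudocounts of 0.1 and 1 CPM, median centring, quantile normalization and rescaling to nuclear genes. Of the list medians, 655 recomputed values moved by less than 0.1. The root cap median, 0.25 with 4 genes, changed sign to -0.0085 with a mean of at least 1 CPM and -0.039 with no filter. The indole glucosinolate and tryptophan median was -0.28 in both of these settings and that of purine permeases 0.36. The cortex median was 1.07 with the 10 CPM filter and 0.74 with none, and the CLE peptide median -0.61 with the 10 CPM filter. These settings change which genes are counted. Medians under 0.2 in size moved too: iron deficiency from 0.12 to -0.023 with a mean of at least 1 CPM and -0.12 with no filter, triterpene genes from -0.17 to 0.021 and 0.040, and, with the 10 CPM filter, the cold regulon from -0.054 to 0.079 and receptor-like proteins from 0.19 to 0.030. In all, 18 medians moved by over 0.1 and 2 more changed sign from a size above 0.2. None of the 25 leading genes in each direction changed sign under the pseudocounts, scalings or summed levels tried. Of the list members past the limit, HRE1 went from 0.73 to -0.32 and BHLH38 from -0.66 to 0.03 when summed. Members inside the limit changed sign too, such as P5CS1 from 0.21 to -0.04. Since the table gives no depth, counting error could not be given for any level.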

Other observations

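Further families differed in a few members, where 3.16% of all ranked genes were higher and 3.69% lower. CLE peptide genes had 3 of 8 lower beyond -0.5 and none higher: CLE6, at 11.9 CPM without and 6.19 CPM with Ti (-0.94), CLE41, whose peptide keeps vascular stem cells dividing, at 22.1 and 13.3 CPM (-0.73), and CLE25 at 7.78 and 5.10 CPM (-0.61). Histone genes had 4 of 35 lower and none higher, with a median of -0.19, and DEAD-box RNA helicases 4 of 23 lower and none higher, with -0.14. Cytochrome P450 genes were balanced, with 10 higher and 9 lower of 112. Aquaporins stood near 0, with a median of 0.03 over 21 genes, PIP2;5 being the gene past the limit.

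Triterpene and terpene genes had 2 higher and 3 lower of 17. TPS25, a terpene synthase, was at 6.35 and 12.3 CPM (0.95), and CYP702A5 at 29.7 and 55.0 CPM (0.89). The thalianol synthase gene THAS1 was at 206 and 159 CPM (-0.37). Transporters of the ABC family included ABCB15 at 197 and 367 CPM (0.90) and PEN3 at 513 and 751 CPM (0.55). MYB15, a regulator of phenylpropanoid genes in the immunity list, was at 37.9 and 40.7 CPM (0.10) at 10 days. At 3 days it differed by -2.30, but at 0.27 and 0.055 CPM, far under the filter of 5 CPM. ASN1 differed by -0.01 at 10 days and by -1.46 at 3 days, there at 13.5 and 4.90 CPM.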
